A study of Mus musculus with 30 samples.

Results

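The microRNA precursors named miR-297, miR-466, miR-467 and miR-669 form repeat families of the mouse, most of them in a single intron of the gene Sfmbt2. Members were every row of the deposited tables whose symbol is Mir297, Mir466, Mir467 or Mir669, with an optional letter and an optional copy number. This rule took 82 of 2194 named features: 6 of miR-297, 29 of miR-466, 17 of miR-467 and 30 of miR-669. Small RNA libraries were made from 5 whole organs (brain, heart, kidney, liver and spleen) taken from 6 male mice, each 4 months old and untreated. Of these mice 3 carried the genotype labelled Ftsj1_DF, a deficiency of the RNA 2'-O-methyltransferase Ftsj1 whose allele the labels do not describe, and 3 were wild type (WT). Of 4 brothers, 2 were of each genotype, and of a further 2 brothers 1 was of each. Each organ gave 3 libraries per genotype, 30 in all. Ftsj1 itself is an mRNA that the small RNA tables leave out, and no value here checks the genotype labels.

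As background, a microRNA is cut from a hairpin precursor and guides a silencing complex to mRNAs that match its seed, the bases near its 5′ end. Sfmbt2 encodes a Polycomb-group protein, is imprinted, and hosts one of the largest microRNA clusters known in rodents, with high output in embryonic stem cells and placenta. In the literature, miR-669a has been described as a repressor of the muscle regulator MyoD, miR-466l as a stabiliser of Il10 mRNA in macrophages, and miR-466h as a promoter of cell death in culture.

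The mature sequences at hand are printed to show the simple repeats in them, in which purines and pyrimidines alternate in runs. RefSeq's microRNA table (build GRCm38.p6) held 9 of the 82 members by symbol, and 8 of them with a mature sequence. These 8 lie outside Sfmbt2, and none is of miR-297. Sequences of the members in Sfmbt2, Mir467e, Mir467c and Mir669c among them, were not examined. The seed, bases 2 to 8, is in capitals.
Mir466i: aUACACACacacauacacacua
Mir466j: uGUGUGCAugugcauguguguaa
Mir466k: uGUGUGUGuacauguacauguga
Mir466q: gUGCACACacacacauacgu
Mir467f: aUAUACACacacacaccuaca
Mir467g: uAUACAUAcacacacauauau
Mir467h: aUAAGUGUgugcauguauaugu
Mir669n: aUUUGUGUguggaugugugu
The longest alternating purine and pyrimidine run was 8 bases, in Mir669n, to 22 bases, with a median of 20. Over the 1666 other mature sequences of that table the median was 4, and 1 of them, or 0.06%, reached 20. The 8 seeds were all distinct. Mir466q (chr3:28419988-28420007, + strand, GRCm38.p6) lies in an intron of Tnik on the same strand. Mir467f (chr11:69635419-69635439, - strand) lies in an intron of Fxr2 and Mir669n (chr3:115979905-115979924, + strand) in an intron of Slc30a7, both on the strand opposite to the gene.

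Of the 82 members, 81 could be placed by symbol in a GRCm38 gene annotation, a build other than the GRCm39 of the deposited tables, so that only order, distance and host gene were taken from it. Mir466c-3 was not placed. In Sfmbt2 lie 71 members, all on the strand of the gene and all in 1 intron of 62.5 kb, which is intron 10 or 11 of 23-exon transcripts of the gene, depending on the transcript. The 71 precursors span 51.6 kb. Of the 14 miR-467 precursors among them, 13 are followed by a miR-466 precursor and 11 have a miR-669 precursor as the second next. In the repeat array, from Mir467a-1 to Mir669a-12, 35 members fill 27.5 kb, 31 of them with a copy number in the symbol, and the median distance from 1 miR-467 precursor to the next was 2.45 kb. The upstream edge holds 16 members and the downstream edge 20, and 10 members lie elsewhere in the genome.

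Each deposited table gives 1 mean per feature over the 6 libraries of an organ, in counts divided by size factors. The means summed to between 8511372 in heart and 21787131 in kidney, and a level is given below as ppm of that sum, its share multiplied by 1000000. Such a level counts small RNA reads under a precursor's symbol. The values do not tell reads of a mature microRNA from reads of its precursor, so they do not measure precursor abundance. The tables were normalized separately, so levels set side by side across organs are descriptions. Sets of microRNAs known for each organ were highest in their own organ, from 1.47% of the spleen sum for leukocyte microRNAs to 26.2% of the liver sum for hepatocyte miR-122. Values in single libraries were solved from the deposited means and fold changes. A mean here is built from 6 whole read numbers, each over its library's size factor. With the deposited fold change as a further condition, this gave 1 solution for 184 of 190 member means above 0. Some of these means allowed several splits into whole reads, up to 215 for Mir467e in kidney. There the 1 split that refitted the deposited fold change was kept. A library cannot be tied to a mouse or genotype by name: the positive side means the 3 libraries of the genotype that raises a fold change, the negative side the other 3. In whole organs, fewer cells of a type and less RNA per cell cannot be told apart.

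The members were most abundant in spleen and least in liver. All 82 together held 615.5 ppm of the spleen sum, 168 ppm in brain, 54.8 ppm in heart, 39.6 ppm in kidney and 17.8 ppm in liver. Spleen stood 3.65-fold above brain and 34.6-fold above liver. Without the 10 most abundant features of each organ in the sums, these ratios were 5.74 and 24.3. The order of organs was the same for each of the 4 families. Leukocyte microRNAs were also highest in spleen, at 1.47% against 0.0221% to 0.184% in the other organs, while red cell microRNAs were at 0.139% in spleen, 0.228% in heart and 0.00713% to 0.0891% in the others. Pancreas microRNAs (miR-216a, miR-216b, miR-217 and miR-375) were also highest in spleen, at 0.322% against 0.00144% to 0.0439%, with all 4 detected there. Of the 4 leukocyte and 2 red cell symbols, 1 each, the defining Mir142 and Mir451a, were listed at 0 in every organ. The part of these cells in the order of organs was not tested. By comparison, 8 matched precursors of the miR-290 cluster, another cluster active in early embryos, held at most 3.42 ppm, in liver. The 42 listed precursors of the imprinted Dlk1-Dio3 cluster held 49091 ppm in brain and 518 ppm in spleen.

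**Figure D1:**
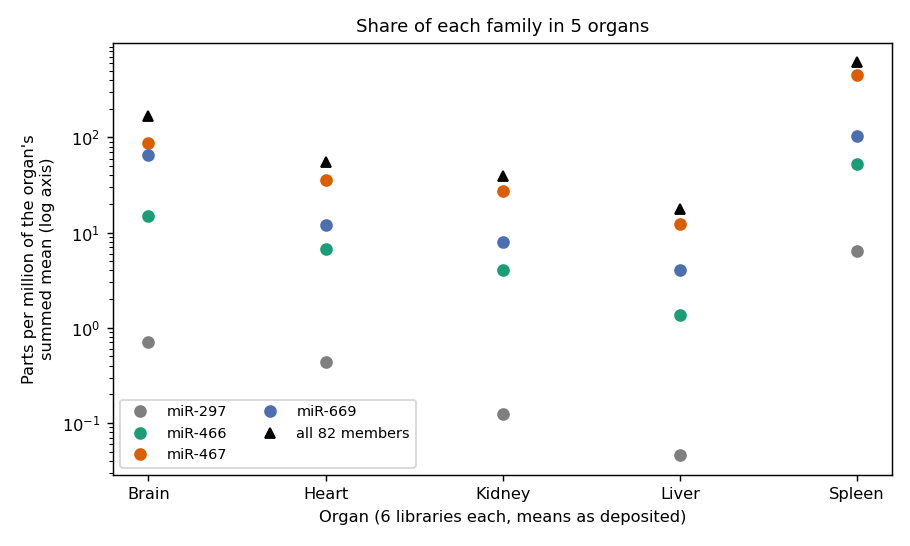
Share of each family, and of all 82 members, in ppm of an organ's summed mean on a log axis, 1 point per organ from the deposited means. Spleen holds the highest point of every family and liver the lowest.

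The miR-467 family made up most of the member level in every organ. Its 17 members held 73.5% of the members' summed mean in spleen, 51.6% in brain, 69.5% in kidney, 64.9% in heart and 69.2% in liver. The miR-669 family held 39.0% in brain and between 17.0% in spleen and 22.9% in liver elsewhere. The miR-466 family held 7.57% to 12.2%, and miR-297 0.258% to 1.04%. A few precursors carried each family: Mir467e was 53.2% to 65.9% of miR-467, and Mir669c was 55.8% to 71.9% of miR-669. Mir466 led miR-466 in all organs but liver, where Mir466n did.

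Mir467e was the highest member in all 5 organs. The authors' mean was 2880 in spleen, where it ranked 116 among all features, 924 in brain, 358 in kidney, 191 in heart and 124 in liver. In single libraries the Mir467e normalized count ran from 120 to 235 in heart, from 213 to 462 in kidney and from 31.3 to 183 in liver. As a level, this was 22.4 ± 5.62 ppm in heart, 16.4 ± 3.78 ppm in kidney and 6.55 ± 2.74 ppm in liver (SD, n = 6 libraries of both genotypes). The heart and kidney libraries overlapped, and every kidney library lay above every liver library, the closest being 9.77 and 9.66 ppm. The reads of Mir467e in brain and spleen had no single solution.

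Mir467c and Mir467d, the next miR-467 precursors, followed the same order of organs. The level of Mir467c was 123 ppm in spleen, 16.6 ppm in brain, 8.33 ppm in heart, 6.35 ppm in kidney and 4.03 ppm in liver. That of Mir467d was 59.7, 12.9, 4.76, 4.62 and 1.73 ppm in the same organs. For both, the libraries of each organ overlapped those of the next organ in the order brain, heart, kidney, liver. In likeness to Mir467e, measured as the SD over 5 organs of the log2 ratio to it, Mir467d came first at 0.18, then Mir669l at 0.22 and Mir467c at 0.40.

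Mir669o is a member of which all 5 organs could be read by library. Its level was 21.4 ± 3.02 ppm in spleen, from 18.2 to 25.8 ppm, and 9.22 ± 1.85 ppm in brain, from 7.09 to 12.6 ppm (SD, n = 6). It was 1.66 ± 1.78 ppm in heart, 1.17 ± 0.687 ppm in kidney and 0.816 ± 0.698 ppm in liver (SD, n = 6). The spleen libraries lay apart from brain and the brain libraries apart from heart, while heart, kidney and liver overlapped. Mir466, the leading miR-466 precursor, was at 23.3 ± 7.54 ppm in spleen, 6.01 ± 2.04 ppm in brain, 2.68 ± 1.31 ppm in heart, 1.66 ± 1.07 ppm in kidney and 0.329 ± 0.514 ppm in liver (SD, n = 6). Its spleen libraries lay above all brain libraries, and each lower organ overlapped the next.

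Of the 14 members detected in all 5 organs, each with a mean of at least 10 in at least 1, 10 could be read by library throughout. Mir297c reached a mean of 10 in spleen only, at 23.0. Left out of these 10 were Mir467c, Mir467d, Mir467e and Mir669c, abundant members whose spleen reads had no single solution. The libraries of the highest organ lay apart from the next for 5 of these 10: Mir466, Mir466n, Mir466p, Mir669l and Mir669o, with spleen above brain in each. The second organ lay apart from the third for 1 of the 10, Mir669o, and for 0 of the 10 did the third lie apart from the fourth or the fourth from the fifth. Mir466n, for example, was at 4.55 ± 1.14 ppm in spleen, from 3.56 to 6.08 ppm, and at 0.7002 ± 0.667 ppm in brain, where its highest library reached 1.70 ppm (SD, n = 6). Mir466g had nearly equal means in spleen and brain, 1.07 ± 1.22 and 1.03 ± 0.672 ppm (SD, n = 6), and these libraries overlapped. Mir297c, of the least abundant family, was at 2.15 ± 0.985 ppm in spleen and at most 0.213 ± 0.521 ppm elsewhere, in heart, where all its reads came from 1 library (SD, n = 6). Among heart, kidney and liver, compared in every pair over the 14 members, libraries lay apart for Mir466 and Mir467e, with heart above liver in both, and for Mir467e with kidney above liver. In Mir466 the closest libraries were at 1.13 ppm in heart and 1.10 ppm in liver. All other pairs among these organs overlapped. Counts of features with libraries apart were not made over all features, so those given for the members are a description. The spread itself was wide: among members with a mean of at least 10, the median coefficient of variation over the 6 libraries was 46.4% in brain to 61.4% in kidney, pooling the 2 genotypes.

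**Figure D2:**
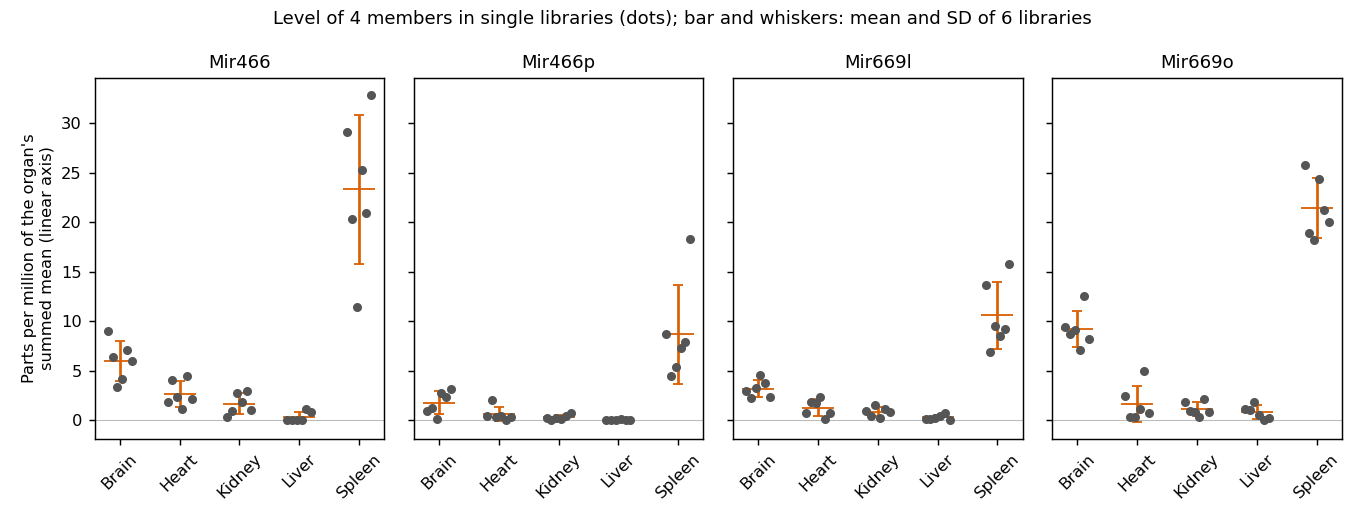
Level of Mir466, Mir466p, Mir669l and Mir669o in each of the 6 libraries of an organ, in ppm on a linear axis, with the mean and SD. The spleen dots of each panel lie above those of the other organs, and the heart, kidney and liver dots overlap except in the Mir466 panel, where the lowest heart dot at 1.13 ppm lies just above the highest liver dot at 1.10 ppm.

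The deposited means gave the highest share of miR-669 in brain, a description with no error of its own. Mir669c stood at 82.5% of the level of Mir467e in brain, at 32.4% to 37.4% in heart, kidney and liver and at 21.7% in spleen. Mir669c was 47.3 ppm in brain against 58.3 ppm in spleen, a ratio of 1.23, where Mir467e stood at 57.3 ppm in brain and 268 ppm in spleen. Mir669o and Mir467d could be compared inside a library, a pair chosen after the levels were seen. The log2 ratio of Mir669o to Mir467d reads was -0.47 ± 0.45 in brain, -1.85 ± 1.36 in heart, -1.99 ± 1.59 in kidney and -1.34 ± 3.09 in liver (SD, n = 6). An exact two-sided permutation test over 924 regroupings gave p = 0.0368 for brain against heart, p = 0.0519 against kidney and p = 0.541 against liver. Spleen could not be compared, since the reads of Mir467d there had no single solution. None of the 3 comparisons passed after Benjamini-Hochberg adjustment, at 0.0779, 0.0779 and 0.541 in the exact test, which treats organs of the same mice as independent. The adjustment does not cover the choice of the pair.

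Along the Sfmbt2 intron the level was concentrated at the edges of the cluster. The 20 downstream members held 75.1% of the member level in spleen, 84.3% in brain, 77.5% in kidney, 78.3% in heart and 70.7% in liver. The 16 upstream members held 13.5% to 26.5%, nearly all of the rest, and Mir467c at 7.27 kb from the first precursor was the highest of them in every organ. The 35 members of the repeat array held 1.11% in liver to 3.43% in kidney. Mir466b-3 led the array in all organs, with the authors' mean at 48.6 in spleen, 29.7 in brain, 12.4 in kidney, 4.80 in heart and 1.34 in liver. The pattern coincides with the naming: the 36 members without a copy number held 96.1% to 97.7% of the level in each organ, and 46 numbered copies the remainder. How reads that match several copies were counted is not given in the sources used here, so low values of numbered copies cannot be told apart from reads left uncounted.

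**Figure D3:**
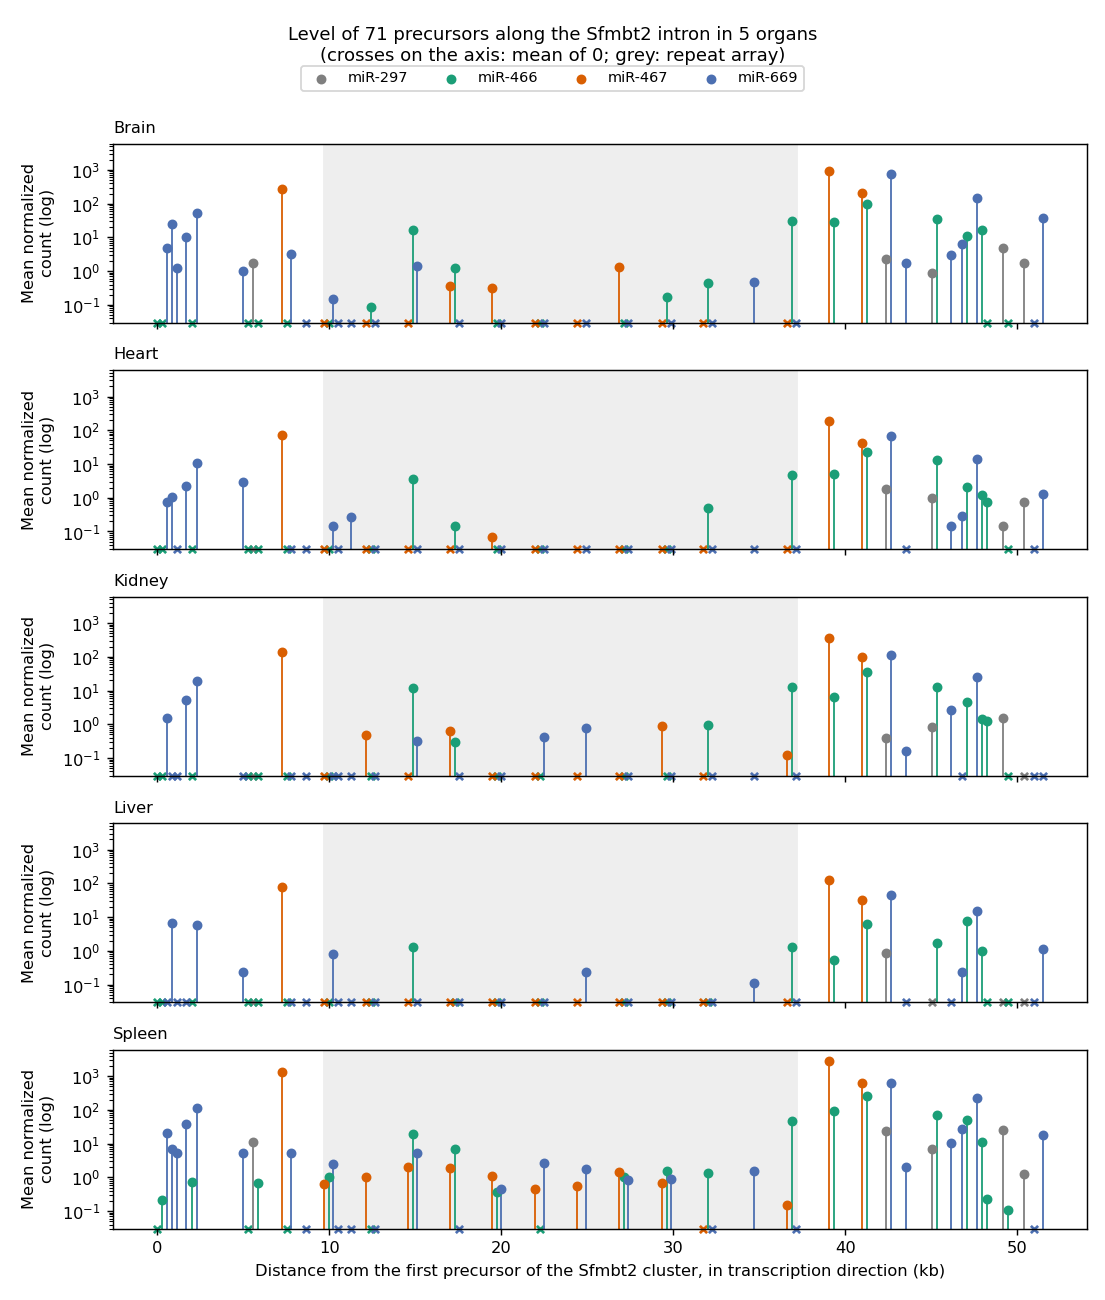
Deposited mean normalized count, on a log axis, of the 71 members in Sfmbt2 against distance in kb from the first precursor, 1 panel per organ, coloured by family, with crosses for a mean of 0. The highest stems stand at the downstream edge, beside Mir467c near 7.27 kb, and the grey repeat array carries few stems outside spleen, the highest 2 of them Mir466b-3 and Mir466c-1.

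Detection ran from 59 of 82 members in spleen to 23 in liver, with 42 in brain, 34 in heart and 32 in kidney, a member being detected where its mean is above 0. As shares, 72.0% of members were detected in spleen, 51.2% in brain, 39.0% in kidney, 41.5% in heart and 28.0% in liver. The 1107 other features with a Mir symbol varied less, between 63.3% in liver and 75.9% in spleen. A mean of at least 10 was reached by 21 members in spleen, 16 in brain, 10 in kidney, 8 in heart and 5 in liver. A fixed mean is a lower level in ppm where the organ sum is larger, 21787131 in kidney against 8511372 in heart. By level the members stood higher in heart, at 54.8 ppm against 39.6 ppm in kidney. No read in an organ, taken as at most 3 reads over its 6 libraries, allows a level of up to 0.0227 ppm in liver and 0.0439 ppm in spleen. As mean normalized counts these limits were close, 0.430 in liver and 0.471 in spleen, while the liver sum was 18941389 against 10737328 in spleen. Whether depth has a part in the number of members detected was not tested.

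By share of the organ sum, 55 of the 64 members detected anywhere were highest in spleen, 4 each in brain and heart, 1 in liver and 0 in kidney. Of these, 14 were detected in spleen alone, 2 in heart alone and 1 in brain alone, and could be highest nowhere else. The same count over all features was not made, so this one is a description. Mir669e and Mir669h, both at the edges of the cluster, were 2 of the 4 highest in brain, with the authors' mean at 24.6 and 38.2 there and 7.15 and 17.9 in spleen. Mir669e had 36, 22 and 15 reads in the positive side of brain and 37, 43 and 0 in the negative side, so that 1 of 6 brain libraries had none. The member highest in liver was Mir466c-3, the one not placed, with a mean of 3.44 that rests on 30 reads in 1 library and none in the other 5; without that library its liver level is 0. In spleen alone 14 members were detected, most of them numbered copies, and among them Mir466l had a mean of 0.110. Mir466h, at the downstream edge, was detected in heart, kidney and spleen with means of 0.224 to 1.25.

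No read was counted in any organ for 18 members. These were Mir297-1, Mir466b-1, Mir466b-5, Mir466f-3, Mir466i, Mir466j, Mir466k, Mir466m, Mir467a-9, Mir467g, Mir467h, Mir669a-4, Mir669a-6, Mir669a-10, Mir669a-12, Mir669g, Mir669i and Mir669k. Of the 8 members whose sequences are printed above, 3 were detected: Mir466q, Mir467f and Mir669n. Mir466q, on the strand of its host Tnik, was the highest of the 10 members outside Sfmbt2, with the authors' mean at 4.29 in brain, 3.23 in spleen, 2.33 in liver and 1.05 in heart, and 0 in kidney. These Mir466q means are not shares of an organ sum and do not rank the organs. Its 7 liver reads came from 1 library, and its brain reads, 8, 4 and 7, from 3 of 6. All 10 members outside Sfmbt2 held at most 0.693% of the member level, in liver.

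The profile over members was alike between organs. Spearman's rho of the 82 deposited means was 0.51 for kidney and liver, the lowest of 10 pairs, and 0.86 for brain and spleen, the highest. Over the 14 members detected in all 5 organs it was 0.84 to 0.98. These are correlations across precursors, which share loci and near-identical sequence, and many members stand at 0 in both organs of a pair.

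Loss of Ftsj1 was compared with wild type within each organ, to ask whether the small RNA reads counted under a precursor's symbol depend on the genotype. In the authors' deposited table of each of the 5 organs, 0 members had an adjusted p under 0.05 (DESeq2's Wald test with Benjamini-Hochberg adjustment). The share of all features passing was 1.13% in heart, 0.229% in liver and 0% in spleen, brain and kidney. The smallest adjusted p of a member was 0.246 in heart and 0.975 to 0.991 in the other organs, per the authors' deposited table. In heart only 5 of 34 detected members carry an adjusted p there. At an unadjusted p under 0.05, the count of members in the authors' deposited table was 1 of 42 in brain, where 2.23% of all features passed, and 1 of 34 in heart, where 5.33% did. It was 0 of 32 in kidney against 4.5% of all features, 0 of 22 in liver against 3.9%, and 2 of 59 in spleen against 3.48%.

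Signs of the members were mixed. In the authors' deposited table, fold changes were positive for 21 and negative for 21 members in brain, with a median log2 fold change of 0.02 against -0.01 over all 1030 features. The counts were 20 and 14 in heart, with a median of 0.18 against 0.16, and 17 and 15 in kidney, with 0.08 against 0.04, in the authors' deposited table. In liver 11 were positive and 12 negative in the authors' deposited table, with a median of -0.51 against 0.07, and in spleen 24 and 35, with -0.32 against 0.00. Among members with a mean of at least 10, the median in the authors' deposited table was -0.19 in spleen, -0.09 in brain, -0.28 in kidney, -0.03 in heart and 0.42 in liver. The median thus changed sign with this filter in brain, heart, kidney and liver, and kept it in spleen; in liver the filter leaves 5 of 23 members. The sides in liver also differ in depth, where the size factor did not exceed 0.729 on the positive side and was 1.45 or more on the negative side, so that genotype and depth cannot be told apart there.

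**Figure D4:**
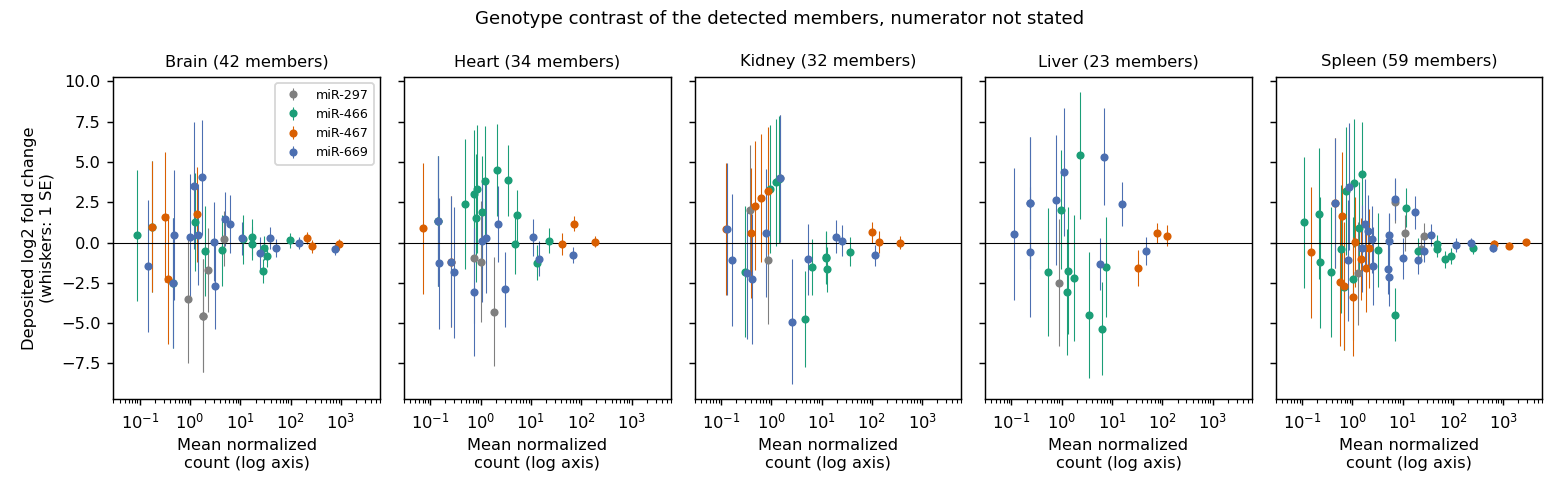
Deposited log2 fold change of each detected member with its standard error, against the deposited mean on a log axis, 1 panel per organ, coloured by family. The values narrow towards 0 as the mean rises, and standard errors above 2 belong to members with means under 10.

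The most abundant members had the narrowest estimates. For Mir467e in spleen the authors' deposited table gives a log2 fold change of 0.00 with a standard error of 0.22, and 0.06 with 0.36 in heart. For Mir467c in spleen the authors' deposited table gives -0.19 with a standard error of 0.23, and for Mir669c -0.32 with 0.25. Mir669c was negative in heart at -0.76 with a standard error of 0.50 and in kidney at -0.79 with 0.65, in the authors' deposited table. In heart, the normalized count of Mir669c was 34.2, 75.1 and 46.3 on the positive side and 103, 106 and 49.8 on the negative side. The sides overlapped, since the lowest of the second set lies below the highest of the first.

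Mir669c kept the same sign in all 5 organs, with -0.43 in brain, -0.51 in liver and -0.32 in spleen beside heart and kidney in the authors' deposited table. Of the 14 members with a fold change in all 5 organs, 3 had 1 sign throughout in the authors' deposited table, Mir669c, Mir466d and Mir466b-3, all negative. Over all 648 such features the share was 11.7%, and 3 of 14 is 21.4%, so with so few members the count is a description. The smallest unadjusted p of Mir669c over the 5 organs was 0.13, in heart, per the authors' deposited table (DESeq2's Wald test).

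In heart, kidney and liver, where all detected members could be read, their sum was compared between sides, and the sides overlapped in each. In heart, with 34 members, the sum of normalized counts was 492, 484 and 455 on the positive side and 470, 583 and 313 on the negative side. In kidney it was 906, 767 and 824 against 923, 789 and 964, and in liver 322, 411 and 310 against 413, 210.4 and 354. The summed level in these 3 organs thus varied less between libraries than most single members did, with a coefficient of variation of 18.8% in heart, 9.26% in kidney and 22.4% in liver. Brain and spleen were not compared in this way, since the members read there held 37.9% and 17.2% of the member level.

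Mir467c in heart had the smallest member p of that organ. Its normalized count was 87.9, 78.0 and 129 on the positive side and 54.7, 47.6 and 28.0 on the negative side. Every library of the first side lay above every library of the second, 98.3 ± 27.0 against 43.4 ± 13.8 (SD, n = 3). The authors' deposited table gives a log2 fold change of 1.15 with a standard error of 0.47 (DESeq2's unadjusted p = 0.0134, adjusted p = 0.246). The log2 ratio of the side means, with 0.5 added to each mean here and below, was 1.17, and 0.93 to 1.37 with any 1 library left out. With 3 libraries against 3, an exact permutation test of a single member cannot go below p = 0.1. The same precursor had smaller log2 fold changes in the other organs of the authors' deposited table: -0.24 in brain, 0.04 in kidney, 0.62 in liver and -0.19 in spleen.

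Mir466p, the precursor next to Mir467e, had the smallest member p in brain. Its normalized count was 14.6, 20.7 and 2.74 on the positive side and 44.0, 37.4 and 51.3 on the negative side. The sides lay apart, at 12.6 ± 9.11 and 44.2 ± 6.99 (SD, n = 3), and the library at 2.74 rests on 2 reads. The authors' deposited table gives a log2 fold change of -1.77 with a standard error of 0.76 (DESeq2's unadjusted p = 0.0203, adjusted p = 0.989). The log2 ratio of the side means ran from -1.31 to -2.29 with 1 library left out. In heart the sign in the authors' deposited table was positive, 1.69 with a standard error of 1.56. The next brain members by p were Mir297a-2 and Mir297a-4, both with 8 reads in the same negative library and none in the other 5, then Mir669c and Mir466d. Mir466d had a normalized count of 23.4, 38.8 and 10.96 on the positive and 26.4, 38.7 and 66.2 on the negative side of brain, which overlapped. In heart the members after Mir467c were low ones and Mir669c: Mir466c-1 had 28, 0 and 5 reads against 2, 0 and 0, Mir466n 6, 0 and 6 against 0 in all 3, and Mir297c 8 reads in a single negative library.

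In spleen the 2 members under an unadjusted p of 0.05 were low precursors of opposite sign. Mir466c-2, in the repeat array, had a normalized count of 1.31, 0 and 0 on the positive side and 13.4, 9.07 and 18.1 on the negative side, from 2 and 46 reads. Per unit of size factor the negative side was 19.1-fold higher, with a 95% exact counting interval of 5.01 to 163 that covers counting error only. The interval pools the reads of a side as independent counts and leaves out the spread between libraries. The solved reads were 2, 0 and 0 against 20, 10 and 16, all even. As the member was also picked by its small p, the interval is no measure of a genotype difference. Both reads of the positive side came from 1 library. The log2 ratio of the side means, with 0.5 added to each, was -3.90, and -3.60 to -4.81 with 1 library left out. The authors' deposited table gives a log2 fold change of -4.47 with a standard error of 1.64 (DESeq2's unadjusted p = 0.00632, adjusted p = 0.988). Mir669e, at the upstream edge, had a normalized count of 22.3, 5.39 and 9.56 on the positive side and 2.69, 1.81 and 1.13 on the negative side. The authors' deposited table gives 2.72 with a standard error of 1.31 for it (DESeq2's unadjusted p = 0.038, adjusted p = 0.988). Of its 44 reads on the positive side 34 came from 1 library, and without that library the log2 ratio of the side means fell from 2.44 to 1.75.

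**Figure D5:**
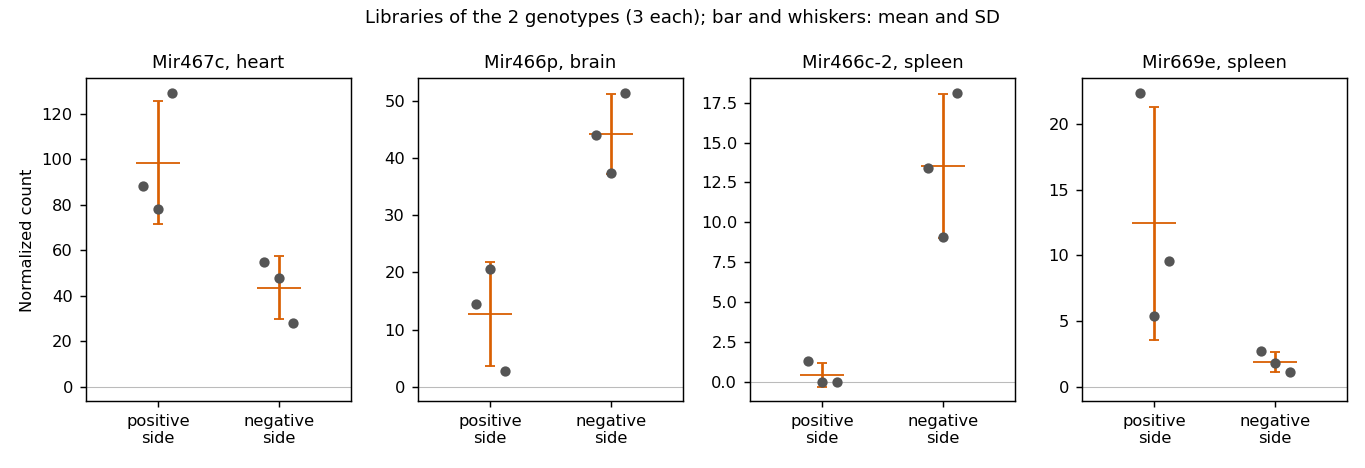
Normalized count in the 3 libraries of each genotype side, with mean and SD, for Mir467c in heart, Mir466p in brain and Mir466c-2 and Mir669e in spleen. In each panel the 3 dots of 1 side lie above the 3 of the other. The 4 were picked by their unadjusted p, and none of the 4 passed the adjusted p.

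A further 3 spleen members followed by p without reaching 0.05. Mir466d had a normalized count of 63.8, 53.9 and 19.1 on the positive side and 63.8, 96.1 and 123 on the negative side, and the sides met at 63.8 (DESeq2's unadjusted p = 0.0508 in the authors' deposited table). Mir297b had 5.26, 24.2 and 6.37 against 1.34, 3.63 and 1.13 (DESeq2's unadjusted p = 0.0584 in the authors' deposited table). Mir669h had 49.3, 16.2 and 19.1 against 15.5, 7.25 and 0 (DESeq2's unadjusted p = 0.0643 in the authors' deposited table). The sides of these members did not overlap either. The positive sides of Mir297b and Mir669h each hold 1 library far above the other 2. Among solved members, sides lay apart for 5 of 55 in spleen, 1 of 40 in brain and 1 of 34 in heart. They did for 0 of 32 in kidney and 1 of 23 in liver. The members named here were picked by small p. The share over all features was not computed, so these counts are a description and not a result about the members. With 3 libraries against 3, sides that lie apart reach an exact permutation p of 0.1 at best. Random order of the libraries alone, without ties, puts sides apart with that same probability of 0.1.

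Of the liver and kidney members with the smallest p, some had reads in 1 or 2 libraries only and others in most. Mir466 in liver had 0 reads in all 3 libraries of the positive side and in 1 of the negative side, and 32 and 24 reads in the other 2 (DESeq2's unadjusted p = 0.0638 in the authors' deposited table). Mir669e in liver had 24 reads in 1 positive library, 2 in 1 negative library and 0 elsewhere. Mir669o in liver had a normalized count of 21.9, 19.97 and 36.0 on the positive side against 10.7, 0 and 4.13, with sides apart (DESeq2's unadjusted p = 0.084 in the authors' deposited table). Mir466n carries no p-value in liver in the authors' deposited table, and 73 of its 79 reads there came from 1 library. Mir467d in liver had 21.9, 25.0 and 2.00 against 97.0, 10.4 and 39.9, with sides that overlapped. In kidney, 30 of the 31 Mir466n reads and all 16 Mir669m-1 reads came from 1 library each. Mir669c, the only abundant one of the 5 kidney members with the smallest p, had 280 in 1 library and 49.5 to 113 in the other 5. Mir466d had 3.01, 7.85 and 7.24 against 0.896, 41.2 and 15.3 in kidney, and Mir297a-3 and Mir669f each had 12 reads in the same library and none in the others.

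Genotype contrasts of the members did not differ between organs past the threshold. Over the 10 pairs of organs, 261 differences of member fold changes could be tested by the z of the difference, and 0 passed the Benjamini-Hochberg adjustment, where the share of all features passing was 0.134% for kidney against liver and 0% for the other 9 pairs. Unadjusted, 5 of the 261 differences, or 1.92%, had p under 0.05, against 2.73% of the 8380 differences tested over all features and pairs. The smallest belonged to Mir467c, whose log2 fold change in heart exceeded that in spleen by 1.35 with a standard error of 0.52. For this pair of DESeq2 fold changes the z test gave an unadjusted p of 0.00975 and an adjusted p of 0.9995 (Benjamini-Hochberg). The smallest adjusted p of any member difference was 0.989. The z test takes the organs as independent, although they came from the same mice, and takes the same genotype as numerator in each organ.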

How the data were processed

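RNA of pulverised organs was phenol-extracted and made into NEXTflex small RNA libraries, per the labels' protocols. The submitters' processing notes name featureCounts (Subread 2.0.3), GRCm39 and DESeq2. The aligner, the annotation, the model and the handling of multiply matching reads were not given in the sources used here. The authors deposited 1 table of 2195 rows per organ. The deposited mean is a signal: counts over size factors, averaged over the 6 libraries, per the file headers. The deposited fold change and standard error are on the log2 scale, with the numerator genotype not given. The deposited Wald statistic is a score with its own p-value, unadjusted and adjusted, per the file headers. A single row, unnamed, was left out (at most 1.82e-05% of a total). In heart, kidney and liver 1 WT library each is of batch 2 by the labels. The tables do not show which, so batch and genotype cannot be told apart there.

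Size factors were solved from means under 1, all of which were whole-read sums at a relative tolerance of 2e-14. Each member mean was then split into whole reads. For means of 20 or more, only splits with a log2 side ratio within 1 of the deposited fold change were searched. From a mean of 100 this window was 0.05. Higher means were checked by refitting the deposited fold change to 1e-04 on the log2 scale, or 1e-05 from a mean of 100. Where several splits were found, this refit chose between them. On simulated data 147 of 147 means were recovered. The simulation was given the exact side ratio and did not use the refit. It therefore does not cover the means that allowed several splits, such as that of Mir467e in kidney. Not recovered were Mir467e and Mir669c in brain, and Mir467c, Mir467d, Mir467e and Mir669c in spleen. A simulated brain and spleen difference over 875 features was called for 9 of 200 features changed by a log2 difference of 1 and for 79 changed by 3. Each library of a group is from a separate mouse, and precision is limited by 3 libraries per genotype.

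The members and the lists were chosen with earlier results of these data known. Named were, per organ, the 5 members of highest mean and the 5 of smallest p, each family's leading member, and members detected in all 5 organs with a mean of at least 10 in 1. Chosen after their values were seen were Mir466c-3, Mir466h, Mir466l, the members outside Sfmbt2, those never detected, and the zones of the cluster. Alternatives were other thresholds, denominators and filters, and each library left out. Python 3.11.15, numpy 2.4.6, scipy 1.17.1, pandas 2.3.3, numba 0.67.0 and matplotlib 3.10.9 were used.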

Additional observations from a re-analysis of the deposited data

How the results depend on the processing

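No paired analysis was possible because the tables hold no values per mouse, so that neither the mouse numbers shared across organs nor the sets of brothers shared by the genotypes could serve as a block. The count of 0 members past the adjusted p was the same with the adjustment recomputed over every p-value of an organ; at an unadjusted p under 0.05 it was 1 in brain, 1 in heart and 2 in spleen. With a mean of at least 1 required, 20 members counted as detected in heart, 18 in kidney and 15 in liver. With a mean of at least 10, these were 8, 10 and 5, with 16 in brain and 21 in spleen. A fixed mean is a different level in ppm in each organ. Without the 10 most abundant features of the organ, members held 1790 ppm in spleen, 312 in brain, 117 in kidney, 127 in heart and 73.6 in liver, and each family's share rose by its organ's same factor. Without Mir467e, the most abundant member, they held 347 ppm in spleen, 111 in brain, 23.1 in kidney, 32.3 in heart and 11.2 in liver. Under both, the order of organs was spleen, brain, heart, kidney, liver. The unadjusted brain and heart difference in the ratio of Mir669o to Mir467d missed 0.05 in 6 of 12 leave-one-out tests. The brain and kidney difference passed it only without 1 kidney library, at an exact permutation p = 0.00216. In every other leave-one-out test of brain and kidney the exact permutation p was 0.0519 to 0.0996. For Mir467c, Mir466p, Mir466c-2 and Mir669e, the sign of the side ratio held without any 1 library. Since their sides did not overlap, this outcome was fixed in advance and lends no support. The planned grouping by mature sequence used 1 value per symbol letter instead. Depth limits members under 3 reads per organ.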

Other observations

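Solved read numbers of the members were even more often than those of other features. Among features with a mean under 8, 77.6% of the 58 nonzero library counts of members were even in brain, 75.5% of 49 in heart, 75.0% of 36 in kidney, 62.9% of 35 in liver and 68.5% of 111 in spleen. For other features with a Mir symbol the share was 50.5% in liver to 56.0% in spleen, and for features with a Gm symbol 38.9% in liver to 50.0% in spleen. In brain, members had 16 library counts of 2 and 12 of 4, against 9 of 1 and 2 of 3. These counts come from sequence-related precursors in the same libraries and are given without a test. Whether the reads of a member are independent counts, as the interval printed for Mir466c-2 takes them to be, was not tested.

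Single libraries carried whole members at low level. Of the members whose reads were solved, 11 of 40 in brain, 13 of 34 in heart, 13 of 32 in kidney, 8 of 23 in liver and 11 of 55 in spleen had reads in 1 library alone. Reads in all 6 libraries were found for 12, 8, 8, 5 and 17 members in the same organs.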
